A study of Mus musculus with 8 samples.

Results

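The 10 genes described here encode the enzymes that build triglyceride from glycerol-3-phosphate or monoacylglycerol: the glycerol-3-phosphate acyltransferases Gpam and Gpat4, the acylglycerolphosphate acyltransferases Agpat2 and Agpat3, the lipins Lpin1, Lpin2 and Lpin3, the monoacylglycerol acyltransferase Mogat1, and the diacylglycerol acyltransferases Dgat1 and Dgat2. They were chosen by name, as acyltransferases and lipins of this pathway, with earlier results of these data known. Some paralogs of the same steps, such as Gpat3 and Agpat1, are not among them. All 10 were found among the 21532 genes of the table. The livers came from 8 male db/db mice, each of which gave 1 RNA-Seq library. All of the mice lacked a working leptin receptor, which makes them obese and diabetic, and there were no lean mice, so each comparison is between obese animals. From 8 weeks of age, 4 mice received a control and 4 received AF1 peptide, both at 5 mg/kg body weight by retro-orbital injection, 2 times per week for 5 weeks. AF1 peptide is a synthetic peptide derived from estrogen receptor α, with short segments of the receptor sequence left out. It is joined to a FITC-labelled TAT sequence, which carries it into cells.

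Triglyceride is made in the liver by adding fatty acids to a glycerol backbone one at a time. GPAT enzymes add the first acyl chain to glycerol-3-phosphate, AGPAT enzymes add the next and give phosphatidic acid, and lipins remove the phosphate to give diacylglycerol. DGAT enzymes then add the last acyl chain, and MGAT enzymes supply diacylglycerol by another route, from monoacylglycerol. In liver the product is stored in lipid droplets or leaves the cell in very-low-density lipoprotein.

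The promoters of Gpam are shown because it was the 1 gene of the 10 that was lower with AF1 peptide at the threshold used. RefSeq (GRCm38.p6) gives 2 start sites for it, both on the minus strand of chromosome 19, and the 250 bases before each are printed 5′ to 3′ on the strand of the gene. Capitals mark the matches found in a search of both strands for 5 motifs. These were the palindromic E-box (CACGTG), the CCAAT box (CCAAT), the GC box (GGGCGG), the sterol response element (TCACNCCAC) and the peroxisome proliferator response element (AGGTCA repeated on 1 strand with 1 base between).
Gpam upstream start, chr19:55127239-55127488: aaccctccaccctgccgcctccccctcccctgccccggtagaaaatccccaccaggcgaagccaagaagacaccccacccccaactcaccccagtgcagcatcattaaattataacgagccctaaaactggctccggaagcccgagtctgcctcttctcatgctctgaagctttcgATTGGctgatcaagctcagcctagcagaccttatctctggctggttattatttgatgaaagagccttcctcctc
Gpam downstream start, chr19:55099478-55099727: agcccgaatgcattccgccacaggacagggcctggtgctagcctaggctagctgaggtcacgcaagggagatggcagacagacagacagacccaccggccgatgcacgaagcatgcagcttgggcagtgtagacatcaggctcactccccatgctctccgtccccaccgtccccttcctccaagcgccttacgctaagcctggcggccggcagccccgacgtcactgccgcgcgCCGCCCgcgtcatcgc
The upstream promoter held a CCAAT box on the opposite strand, 74 to 70 bases before the start, and the downstream one a GC box on the opposite strand, 16 to 11 bases before the start. These motifs are common, since 33.8% and 32.7% of all 32851 promoters of the same length held a CCAAT box and a GC box, respectively. Over the 7 of the 10 genes with a promoter in the table, which gave 11 promoters, no match to the sterol response element or to the peroxisome proliferator response element was found. Of all promoters, 1.05% and 0.0335% held them. Only exact matches to the printed letters within 250 bases were searched for, so finding none in 11 promoters was likely beforehand. It does not show that these genes lack such sites. A palindromic E-box (6.02% of all promoters) was found in 1 promoter, at Lpin2. The bases that follow the upstream Gpam start were found in a transcript of another annotation (GENCODE M21), and those that follow the downstream start were not. The table of counts gives 1 value per gene, so transcripts from the 2 Gpam starts could not be told apart.

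The values are normalized read counts, which are reads divided by 1 size factor for each library, and between 23031880 and 45117528 reads were counted per mouse. AF1 peptide replicate 1 stood apart from the other 7 libraries. In a principal component analysis, the first component (39.3% of the variance) placed it at -74.25, with the others between -2.334 and 21.8, and its share of mitochondrial mRNA was the lowest of all (20.8%, against 22.4 to 34.3% in control mice and 34.3 to 37.8% in AF1 peptide replicates 2 to 4). The summed normalized counts of 7 hepatocyte markers, of which Alb (albumin) was the highest per kb, ranged from 2423627 to 2583135 in control mice. They were 1733817 in that mouse and 2119361 or more in the other AF1 peptide-treated mice. The single markers went both ways in it. Alb, Apoa1 and Ttr were at the lowest of all 8 mice, whereas Cps1 (34576 normalized counts, control maximum 13727), Tat (68707, control maximum 23826), Cyp2e1 (117704, control maximum 111379) and Fgb (47082, control maximum 39958) were at the highest. Markers of macrophages (6 of 6 in the table) summed to 5381 to 6690 in control mice, 2410 in AF1 peptide replicate 1 and 6094 to 6422 in the other treated mice. The fold changes and ratios of the 10 genes are therefore given with and without this mouse. The groups were compared by limma on the log2(normalized count + 1) scale for 15989 genes, those averaging 10 or more, and a gene is said to be called, higher or lower where its unadjusted p was under 0.05, the threshold that the study used. Across all of these genes 990 (6.19%) were under this threshold, 3.16% higher and 3.03% lower with AF1 peptide. After Benjamini-Hochberg adjustment no gene was called by limma (smallest adjusted p = 0.763) or edgeR, and DESeq2 called 3 genes (Nt5e, Phlda1 and Tbc1d8), none of them among the 10. In whole liver, fewer cells of a type and less RNA per cell cannot be told apart.

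All 10 genes passed the filter, with at least 212 reads in every mouse. At the unadjusted threshold 2 of the 10 were called, against 6.19% of all genes, with Gpam lower and Dgat1 higher. With a fold change over 1.3 as well, Gpam alone of the 10 was called, against 3.69% of all genes. Neither passed after adjustment over all genes. The median log2 fold change of the 10 genes was 0.02, beside -0.01 for all genes tested, and 5 of the 10 had a negative fold change, beside 51.8% of all genes. Scaling the libraries to equal totals moved the median of all genes to -0.0988 and the calls to 129 higher and 770 lower, from 506 and 484. Of the 10 genes 8 were then negative, with Lpin1, Lpin2 and Dgat2 changing sign, and Gpam was called and Dgat1 (0.18) was not. With 26 mitochondrial genes left out of the totals, the median was -0.00917, with 447 higher and 460 lower. In that setting 5 of the 10 genes were negative, and Dgat1 was called and Gpam was not.

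**Figure D1:**
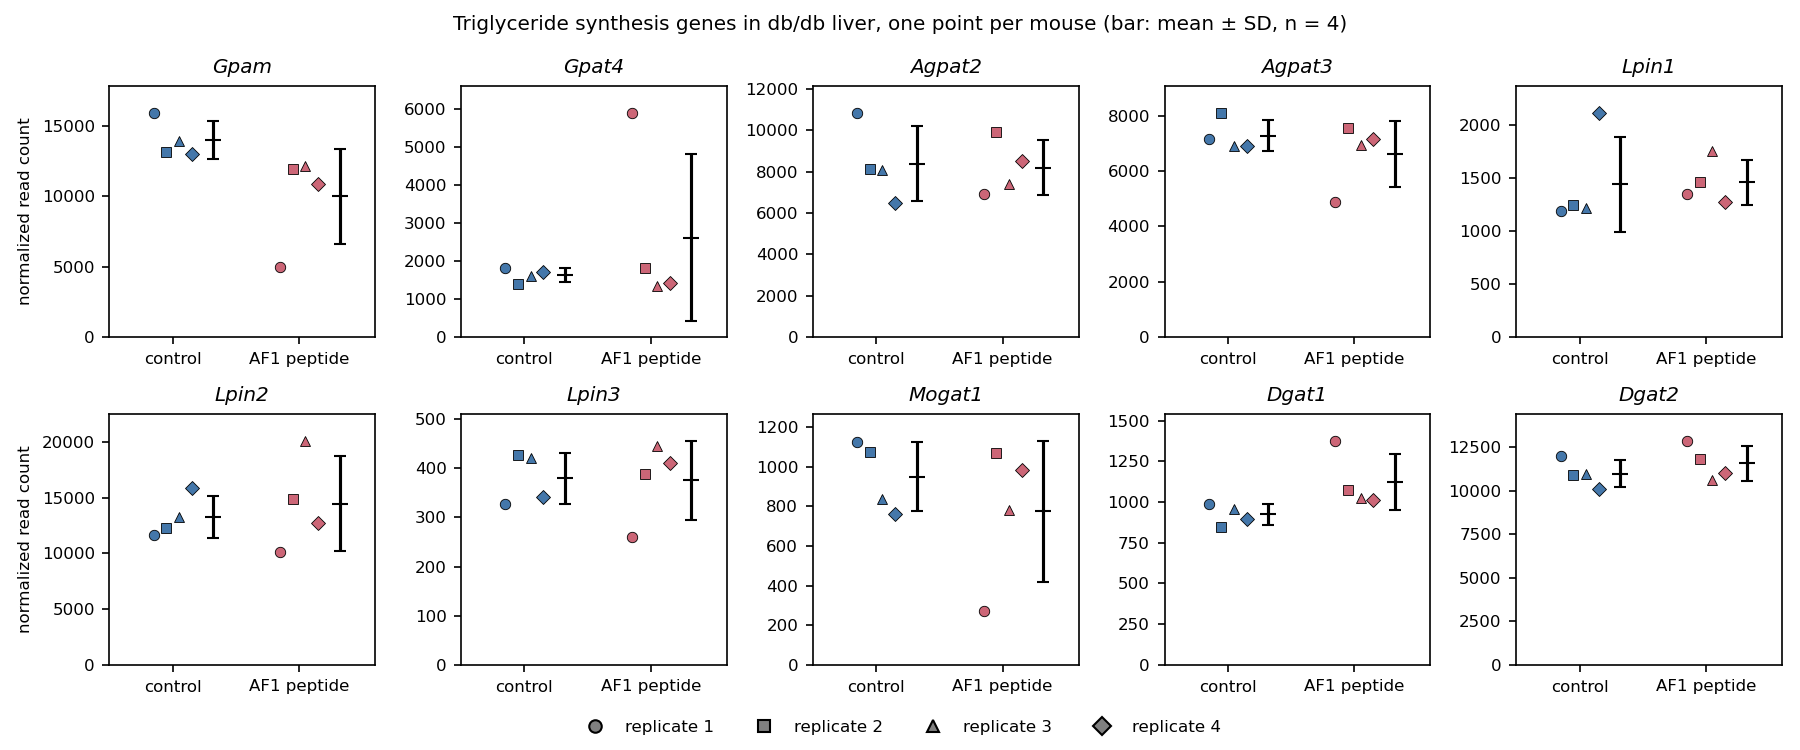
Normalized read counts (y axis, linear) of the 10 genes in each mouse, by group (x axis), with marker shapes for replicates 1 to 4 and bars for the mean ± SD of 4 mice. The groups do not overlap for Gpam (lower with AF1 peptide) and Dgat1 (higher), and AF1 peptide replicate 1 lies far from the rest for Gpam, Gpat4 and Mogat1.

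Gpam encodes the acyltransferase of the outer mitochondrial membrane (GPAT1), which starts glycerolipid synthesis and is well known as a gene switched on by insulin in liver. Its normalized counts were 15900.4, 13162, 13892 and 13013 in control mice and 5009, 11896, 12144 and 10856 in AF1 peptide-treated mice. All 4 treated mice were below all 4 control mice, a pattern found in this direction in 1.85% of all genes, and replicate 1 was by far the lowest. The control mean of 13992 ± 1329 and the treated mean of 9976 ± 3358 (SD, n = 4 each) gave a ratio of 0.713. The log2 fold change was -0.57 with a standard error of 0.26 and a 95% interval of -1.13 to -0.0012, just inside the unadjusted threshold (limma, adjusted p = 0.763). Without AF1 peptide replicate 1 it was -0.26, with a 95% interval of -0.51 to -0.01 (limma, adjusted p = 0.491), so the gene was still called lower but by less than 1.3-fold. The call was lost when any 1 of the 4 control mice or AF1 peptide replicate 4 was left out, with log2 fold changes of -0.50 to -0.64 in those fits.

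Gpat4 encodes the GPAT enzyme of the endoplasmic reticulum that supplies much of the remaining activity in liver. It had normalized counts of 1808, 1411, 1603 and 1719 in control mice and 5900.4, 1817, 1350.2 and 1419 in treated mice. The groups overlapped, and a single mouse, AF1 peptide replicate 1, was 3.61-fold above the control mean. The log2 fold change of 0.39 (95% interval -0.48 to 1.25, limma adjusted p = 0.849) became -0.10 without that mouse (95% interval -0.38 to 0.17, limma adjusted p = 0.802). In the same animal Gpam was 2.79-fold below the control mean, so the pair moved apart in it. The ratio of Gpam to Gpat4 normalized counts was 8.79, 9.33, 8.67 and 7.57 in control mice and 0.849, 6.55, 8.99 and 7.65 in treated mice. Only the treated replicate 1 was far from the others, and the mean log2 ratio did not differ past the threshold between groups (difference -0.95, two-sided exact permutation test, p = 0.2, adjusted p = 0.5 over 5 ratios). Without it the difference was -0.16 (exact permutation test, p = 0.314).

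Levels of different genes were compared per kb of exon, with the exon length from an annotation (GENCODE M21), since the isoform in use is unknown. Gpam made up 81.3 to 83.9% of the summed level of the 4 GPAT genes (Gpam, Gpat2, Gpat3 and Gpat4) in control mice and 79.4 to 82.6% in AF1 peptide replicates 2 to 4, but 41.8% in AF1 peptide replicate 1. Gpat4 made up 49.2% in that mouse, and 8.96 to 12.1% in the other 7. The sum of the 4 genes ranged from 2357 to 2842 normalized counts per kb in control mice and from 1797 to 2248 in treated mice, with no overlap. As Gpam supplied most of it, this sum is not separate evidence from Gpam itself. The other GPAT genes did not pass the test, with log2 fold changes of 0.23 for Gpat2 (limma, adjusted p = 0.777) and -0.14 for Gpat3 (limma, adjusted p = 0.812).

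**Figure D2:**
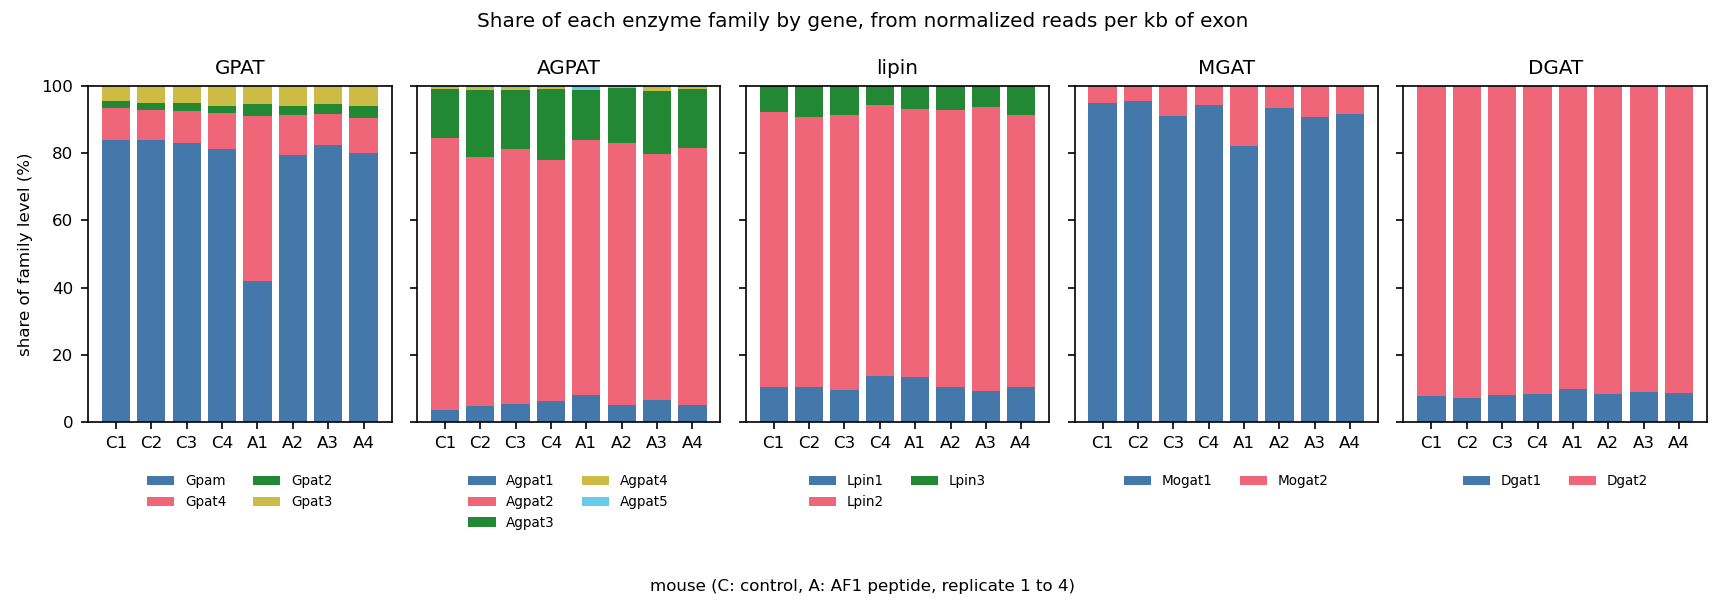
Share (%) of each enzyme family's summed level per kb of exon that each gene took, with 1 stacked bar for each control (C1 to C4) and AF1 peptide (A1 to A4) mouse. The share of Gpam was near 80% in every mouse but A1 (41.8%), and Agpat2, Lpin2 and Dgat2 took over 70% of their families in every mouse.

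Agpat2 and Agpat3 encode enzymes that turn lysophosphatidic acid into phosphatidic acid, and loss of AGPAT2 in people causes lipodystrophy with fatty liver. Agpat2 had normalized counts of 10831, 8139, 8070.4 and 6468 in control mice and 6908, 9925, 7419.8 and 8494 in treated mice. The groups overlapped almost wholly, with a log2 fold change of -0.02 (95% interval -0.40 to 0.35, limma adjusted p = 0.985), which was 0.05 without AF1 peptide replicate 1 (95% interval -0.31 to 0.41). Agpat3 had 7159.5, 8094, 6907 and 6912 in control mice and 4877, 7549, 6931 and 7138 in treated mice. Its treated replicate 1 was the lowest of the 8 mice, and the log2 fold change of -0.15 (95% interval -0.47 to 0.17, limma adjusted p = 0.836) was -0.01 without it (95% interval -0.23 to 0.21). The ratio of Agpat2 to Agpat3 differed by 0.13 on the log2 scale (exact permutation test, p = 0.486, adjusted p = 0.643), and by 0.06 without that mouse (exact permutation test, p = 0.743). Among their paralogs, Agpat1 was higher with AF1 peptide (747 ± 76.5 to 906 ± 109, SD, n = 4 each, log2 fold change 0.28, limma adjusted p = 0.763). Its groups overlapped, and it was not called when control replicate 1 or 2 or AF1 peptide replicate 1, 2 or 3 was left out (log2 fold changes of 0.21 to 0.27). The log2 fold changes of Agpat4 (-0.07, limma adjusted p = 0.975) and Agpat5 (0.08, limma adjusted p = 0.915) did not pass.

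The lipins are phosphatidate phosphatases, and lipin-1 also works in the nucleus as a partner of transcription factors of fat oxidation. Lpin2, the main lipin of liver, had normalized counts of 11682, 12284, 13276 and 15892 in control mice and 10161, 14877, 20109 and 12748 in treated mice. Both the lowest and the highest of the 8 values came from treated mice. Its log2 fold change was 0.09 (95% interval -0.35 to 0.53, limma adjusted p = 0.935), and 0.24 (95% interval -0.12 to 0.60, limma adjusted p = 0.630) without AF1 peptide replicate 1. Lpin1 had 1185, 1244, 1215 and 2112 in control mice and 1344, 1463, 1756 and 1273 in treated mice. Control replicate 4 was higher than every other mouse, and 3 of the 4 control mice lay below all treated mice. The log2 fold change of Lpin1 was 0.05 (95% interval -0.36 to 0.47, limma adjusted p = 0.967). It was 0.09 without AF1 peptide replicate 1 (95% interval -0.33 to 0.51) and 0.25 without control replicate 4 (again not called). Lpin3, whose lipin is better known from intestine, had 328, 427, 420.5 and 342 in control mice and 260.4, 387, 444 and 410.5 in treated mice, with a log2 fold change of -0.03 (95% interval -0.42 to 0.35, limma adjusted p = 0.978). Its treated replicate 1 was the lowest of the 8 mice, and without it the sign turned, to 0.13 (95% interval -0.14 to 0.41, limma adjusted p = 0.736). Per kb of exon, Lpin2 made up 80.4 to 81.9% of the summed lipin level in control mice and 79.9 to 84.5% in treated mice. Neither the ratio of Lpin1 to Lpin2 (log2 difference -0.03, exact permutation test, p = 0.686, adjusted p = 0.686) nor that of Lpin3 to Lpin2 (-0.12, exact permutation test, p = 0.514, adjusted p = 0.643) passed the threshold. Without AF1 peptide replicate 1 these differences were -0.15 (exact permutation test, p = 0.314) and -0.11 (exact permutation test, p = 0.629).

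Mogat1 encodes MGAT1, a gene of low activity in lean mouse liver that is well known to be induced in fatty liver. Its normalized counts were 1123, 1077, 839.9 and 764 in control mice and 274, 1068, 781 and 983 in treated mice. Treated replicates 2 to 4 lay within the control range, and replicate 1 was 3.47-fold below the control mean. The log2 fold change was -0.45 (95% interval -1.26 to 0.37, limma adjusted p = 0.820) with that mouse and -0.0041 without it (95% interval -0.34 to 0.33, limma adjusted p = 0.996). Mogat2, its paralog, had a log2 fold change of 0.34 (limma, adjusted p = 0.774) at a level per kb of exon of 38.5 in control mice, against 610.4 for Mogat1.

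The last step is shared by 2 enzymes with no similarity in sequence. DGAT1 lies in the endoplasmic reticulum and uses mostly fatty acids from outside the cell or from lipolysis, whereas DGAT2 also sits on lipid droplets and uses mostly newly made fatty acids. Dgat1 had normalized counts of 991, 846, 959.9 and 898 in control mice and 1376, 1076, 1026 and 1013 in treated mice. All treated mice were above all control mice, a pattern found in this direction in 2.05% of all genes, and replicate 1 was again the farthest out. The mean rose from 924 ± 64.6 to 1123 ± 171 (SD, n = 4 each), a ratio of 1.22. The log2 fold change was 0.27 with a standard error of 0.12 (95% interval 0.01 to 0.53, limma adjusted p = 0.763). It was 0.17 without AF1 peptide replicate 1 (95% interval -0.04 to 0.38, limma adjusted p = 0.559), where the threshold was no longer passed. The call was also lost when control replicate 2, 3 or 4 or AF1 peptide replicate 2 was left out, with log2 fold changes of 0.23 to 0.29.

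Dgat2 had normalized counts of 11984, 10894, 10976 and 10105 in control mice and 12884, 11835, 10629 and 11015 in treated mice. The groups overlapped, with means of 10990.1 ± 770.4 and 11591 ± 998 (SD, n = 4 each) and a log2 fold change of 0.08 (95% interval -0.17 to 0.32, limma adjusted p = 0.896), or 0.02 without AF1 peptide replicate 1 (95% interval -0.21 to 0.25). Scaling cannot alter the ratio of both genes within a mouse, and the ratio of Dgat2 to Dgat1 was 12.1, 12.9, 11.4 and 11.3 in control mice and 9.36, 11.0, 10.4 and 10.9 in treated mice. Every treated mouse was below every control mouse. The mean log2 ratio was 3.57 ± 0.088 in control and 3.38 ± 0.106 in treated mice (SD, n = 4 each), a difference of -0.20 with the smallest p that 4 against 4 mice allow (two-sided exact permutation test, p = 0.0286, adjusted p = 0.143 over 5 ratios). It was -0.15 without AF1 peptide replicate 1 (exact permutation test, p = 0.0571). Dgat1 made up 7.26 to 8.23% of the summed DGAT level per kb of exon in control mice and 8.40 to 9.73% in treated mice, and the sum itself overlapped between the groups (3572 to 4211 and 3783 to 4630 normalized counts per kb). The ratio and the share both draw on the Dgat1 values, so they are not separate evidence from Dgat1 itself. How often the ratio of other gene pairs separates the groups was not tested.

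**Figure D3:**
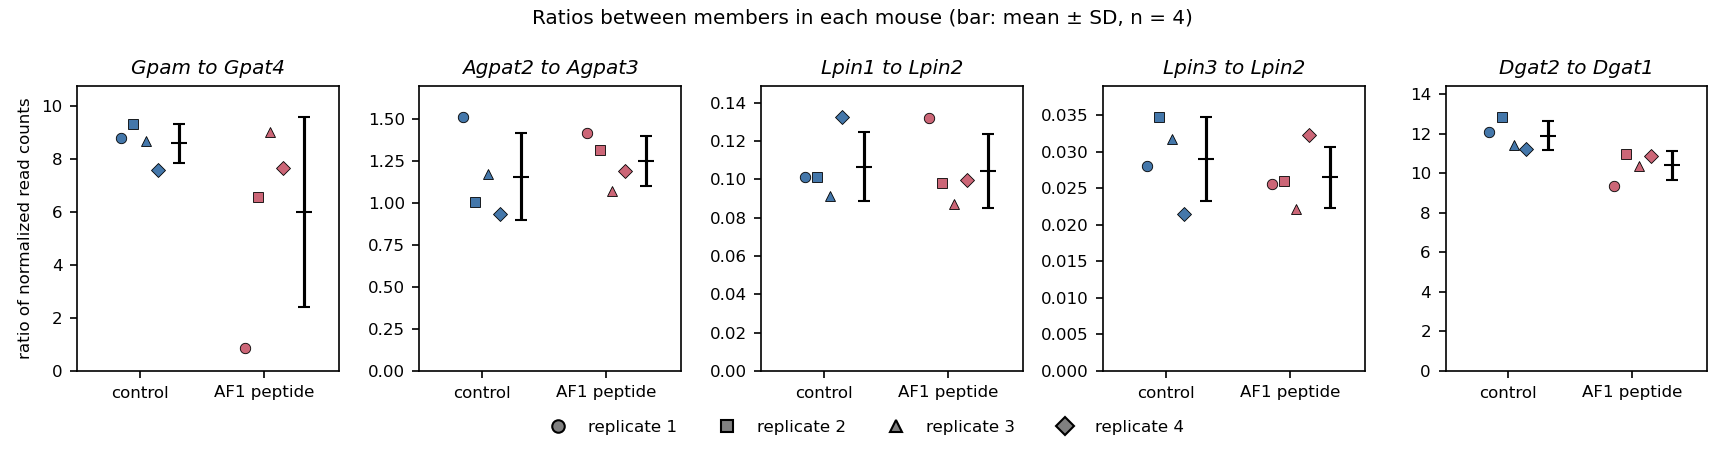
Ratios of normalized read counts (y axis, linear, 1 panel for each of 5 ratios) in each mouse, by group, with bars for the mean ± SD of 4 mice. The ratio of Gpam to Gpat4 falls to 0.849 in 1 treated mouse only, while that of Dgat2 to Dgat1 is below the control values in all 4 treated mice (9.36 to 11.0 against 11.3 to 12.9).

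**Figure D4:**
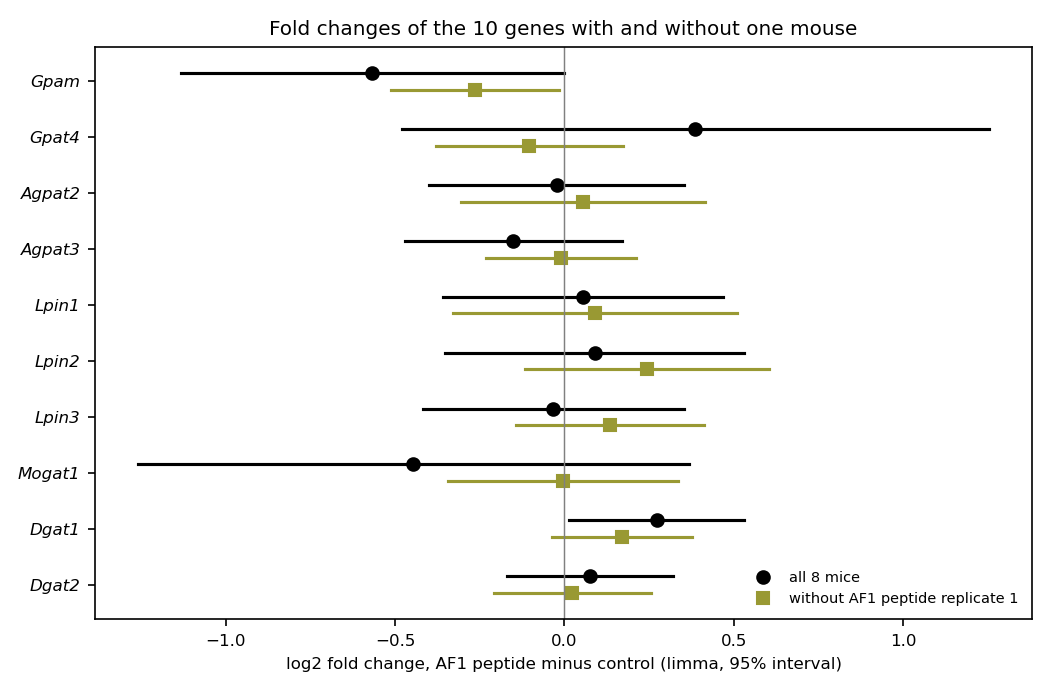
Log2 fold changes (x axis, AF1 peptide minus control, limma, 95% interval) of the 10 genes, with all 8 mice (circles) and without AF1 peptide replicate 1 (squares). With all mice the intervals of Gpam and Dgat1 leave out 0, and without that mouse the interval of Gpam does so (-0.51 to -0.01), while those of Gpat4 and Mogat1 shrink around values of -0.10 and -0.0041.

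Ranked by level in control mice, Agpat2 (3933 ± 849 normalized counts per kb of exon, SD, n = 4) and Dgat2 (3565 ± 249.9) came first, followed by Gpam (2099.7 ± 199), Lpin2 (1086 ± 152), Agpat3 (933 ± 72.2) and Mogat1 (610.4 ± 113). Dgat1 (302 ± 21.1), Gpat4 (245 ± 25.7), Lpin1 (149 ± 46.5) and Lpin3 (103 ± 14.0) were the lowest. The ranges of neighbours over the 4 mice overlapped for 3 of the 9 neighbouring pairs, which were Agpat2 with Dgat2, Lpin2 with Agpat3, and Gpat4 with Lpin1. One gene of each family thus stood above the rest of it in control liver: Gpam, Agpat2, Lpin2, Mogat1 and Dgat2.

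AF1 peptide replicate 1 had the lowest value of all 8 mice for 5 of the 10 genes (Gpam, Agpat3, Lpin2, Lpin3 and Mogat1) and the highest for 3 (Gpat4, Dgat1 and Dgat2). Markers of other cells were examined beside these values. Of 6 adipocyte markers 3 were in the table, with a sum of 31.0 to 109.6 in control mice, 12.1 in AF1 peptide replicate 1 and 29.7 to 76.7 in the others. Adipoq, Plin1 and Lep were not analysed here. Of 6 enterocyte markers 4 were in the table (Sis and Cdx2 were not analysed here), and their sum was 5697 to 7362 in control mice, 2564 in AF1 peptide replicate 1 and 4757 to 5059 in the others. Most of it came from Fabp2, a fatty acid-binding protein gene that hepatocytes also express, which was lower with AF1 peptide (log2 fold change -0.66, limma adjusted p = 0.763), and by -0.43 without AF1 peptide replicate 1. Of 6 skeletal muscle markers 2 were in the table (Acta1, Ckm, Myh4 and Myh1 were not analysed here), with sums of 1.65 to 9.73 in control and 1.83 to 9.18 in treated mice. Among the macrophage markers, Adgre1 (F4/80) was lower with AF1 peptide (log2 fold change -0.66, limma adjusted p = 0.763) but was not called without AF1 peptide replicate 1 (-0.45), and Clec4f, a Kupffer cell lectin, was the highest per kb. The part of these other cells and of the mitochondrial share in the values of the 10 genes was not tested.

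Of the other genes of glycerolipid synthesis, a list of 18 with glycerol-3-phosphate dehydrogenases, glycerol kinase, phosphatidate phosphatases and the paralogs of the 10 genes, 17 were tested and Awat1 was not analysed here. Agpat1 was the 1 gene called, near the 6.19% called over all genes, and 9 of the 17 had a negative fold change, beside 51.8% of all genes (median log2 fold change -0.02). Gpd1, which makes glycerol-3-phosphate, was the highest of them per kb, with normalized counts of 15357 ± 6522 in control mice and 11487 ± 2533 in treated mice (SD, n = 4 each, log2 fold change -0.36, limma adjusted p = 0.796). A second list held 21 genes that take phosphatidic acid or diacylglycerol into phospholipids or signalling, of which 17 were tested and Dgkb and Dgki were not analysed here. Of these 2 were called, beside 6.19% of all genes. Without AF1 peptide replicate 1 the count was 4 of the 17, beside 1603 of 15994 genes tested. The genes added in that fit were Cds2, lower (log2 fold change -0.22), and Dgkh, higher (0.58). Dgka, a kinase that turns diacylglycerol back into phosphatidic acid, was higher, with 393 ± 22.1 normalized counts in control and 493 ± 46.0 in treated mice (SD, n = 4 each) and no overlap (368 to 421 against 452 to 557), a pattern found in 2.05% of all genes. Its log2 fold change was 0.32 (limma, adjusted p = 0.763), the same to 2 decimals without AF1 peptide replicate 1 (limma, adjusted p = 0.474), and it was called whichever mouse was left out. Selenoi, the ethanolamine phosphotransferase that uses diacylglycerol to make phosphatidylethanolamine, was lower (653 ± 88.0 to 511 ± 68.3, SD, n = 4 each, log2 fold change -0.35, limma adjusted p = 0.763). It was not called when control replicate 1 or 2 or AF1 peptide replicate 3 was left out (log2 fold changes of -0.26 to -0.31). Over the 17 genes 11 had a negative fold change, beside 51.8% of all genes, with a median of -0.03, and the highest per kb was Pcyt2, of the same ethanolamine pathway (log2 fold change 0.22, limma adjusted p = 0.781).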

How the data were processed

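RNA-Seq libraries (Illumina stranded mRNA) were made from 1 µg of TRIzol-extracted RNA of frozen liver from 4 control and 4 AF1 peptide-treated mice. For the authors' counts, TrimGalore 0.6.7 was used for trimming, HISAT2 for alignment, SAMtools 1.17 for sorting and GenomicAlignments for counting per gene. The build in the submitters' processing notes is mm39. The annotation and the use of strand in counting are not given in the sources used here. The deposited signal is a table of normalized counts, which the authors made by dividing reads by 1 size factor per library (0.5475 to 1.2139). All 172256 values came out as whole reads within 0.01 read, and median-of-ratios size factors computed from these reads were the same. Replicates were not pooled, no column was left out (0), and no 2 libraries of a group were duplicates (chi-square of 14.6 or more per degree of freedom). No other gene's transcripts shared 50-base words with the 10 genes. Exons of Agpat2, Agpat3 and Mogat1 overlap genes on the opposite strand, whose reads cannot be told apart from theirs if strand was not used.

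Groups came from the sample labels. limma 3.58.1 (R 4.3.3) was fitted to log2(normalized count + 1) with an intensity trend over 15989 genes with a mean of at least 10, and p values were adjusted by the Benjamini-Hochberg method over all of them. A fold change on this scale slightly understates the change of low genes. The methods name p under 0.05 and no test. Each mouse gave 1 library, so p values rest on the spread between mice. In limma they do so only in part, since each gene's variance was drawn toward the intensity trend over all genes. The calls of Gpam and Dgat1 depend on this, as neither gene was called with its own variance. For ratios, exact permutation tests (two-sided) over the mice were used. The 10 genes and the gene lists were chosen with earlier results of these data known. All 10 genes are named, and of the lists those with p under 0.05, the highest per kb and the paralogs. Levels per kb use GENCODE M21 exon lengths (GRCm38), and promoters and their coordinates come from RefSeq (GRCm38.p6).

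The limma, edgeR and DESeq2 fits were tested on simulated counts. The settings varied were the pseudocount (0.5 or 5), the filter (none, or 10 or more in every mouse), TMM factors, equal totals with and without 26 mitochondrial genes, no trend, each gene's own variance, a replicate block, the tool (edgeR 4.0.16 or DESeq2 1.42.0, given the recovered reads), and each mouse left out in turn. Each of the 10 genes had 212 reads or more in each mouse. Their precision is given as the SD over mice and the standard error or 95% interval of the fit, which include counting error.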

Additional observations from a re-analysis of the deposited data

Results flagged for a closer look

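Over 30 groups of 4 mice (the 10 genes and 5 ratios in each group, on the log2 scale), 3 held a mouse that lay far from the other 3, where chance would give about 1.5. The measure, judged by Dixon's critical value, is a mouse's distance to its closest neighbour as a share of the range over its group. Gpam in AF1 peptide replicate 1 was the lowest of its group (0.873), at 5009 normalized counts beside 10856 to 12144 in the other treated mice. The ratio of Gpam to Gpat4 was the lowest in the same mouse (0.865), at 0.849 beside 6.55 to 8.99, and it shares the value of Gpam, so both come from 1 library. Lpin1 in control replicate 4 was the highest of its group (0.916), at 2112 normalized counts beside 1185 to 1244.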

How the results depend on the processing

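With all 8 mice 2 of the 10 genes were called. The count was 1, with Dgat1 the gene called, with a minimum of 10 in every mouse, with a block for replicate numbers and with edgeR. This was also so with equal totals without mitochondrial genes. With equal totals over all genes the count was again 1, but the gene called was Gpam. The count was 0 without the intensity trend or with each gene's own variance. It ranged from 0 to 2 when each mouse was left out in turn. Gpam was called in 6 of 12 alternative settings and in 3 of 8 fits with a mouse left out, and Dgat1 in 9 and 3 of them. The other 8 genes were not called in any of these settings or with any mouse left out. Over the whole table, leaving out a mouse gave from 542 (without control replicate 2) to 1603 genes (without AF1 peptide replicate 1) beside 990, and the block gave 1244. Equal totals moved the median of all genes to -0.0988, split the calls into 129 higher and 770 lower (506 and 484 otherwise), and turned the direction of Lpin1 (-0.0371), Lpin2 (-0.0022) and Dgat2 (-0.0157). With the mitochondrial genes left out of the totals, the median was -0.00917, with 447 higher and 460 lower. Lpin1 (0.0532), Lpin2 (0.0882) and Dgat2 (0.0747) kept their direction there. Among the other glycerolipid genes the count called was 1, and 0 with equal totals (with or without mitochondrial genes), own variance or the block, and 0 to 2 with a mouse left out. The gene counted was not always Agpat1. Without the intensity trend it was Awat2 (log2 fold change 0.42), and Agpat1 was not called. Without control replicate 1 or 2 the counts of 2 and 1 came from genes other than Agpat1. The ratio of Dgat2 to Dgat1 kept its direction, from -0.2253 to -0.1476 with a mouse left out. It no longer passed the threshold without control replicate 1, control replicate 2 or AF1 peptide replicate 1 (exact permutation test, p = 0.0571 in each). With 3 against 4 mice there are only 35 arrangements, so p moves in coarse steps. All treated mice left in were still below all control mice left in. Directions turned with a mouse left out for Gpat4 (-0.1035 to 0.6054), Agpat2 (-0.1389 to 0.109), Lpin1 (-0.0387 to 0.2536), Lpin2 (-0.0841 to 0.2442), Lpin3 (-0.1228 to 0.1332) and the ratio of Lpin1 to Lpin2 (-0.1541 to 0.0752). The cause of these changes was not tested. The replicate numbers name different mice, and mice with the same number did not deviate together in every pair (correlations of 0.235, 0.0238, 0.216 and -0.064). As a block, they left the ratio of Dgat2 to Dgat1 at -0.1973 (exact permutation test, p = 0.125, the smallest that 4 pairs allow).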
